A study of Capra hircus with 8 samples.

Results

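Skin of month 12 was compared with skin of month 6 in cashmere goats, a breed type kept for its fine undercoat, and in milk goats, both of the species Capra hircus. The comparison rested on 4 of the 8 libraries of the series: cashmere goat month 6, cashmere goat month 12, milk goat month 6 and milk goat month 12. Genes were read as moving the same way when their level at month 12 was higher, or lower, than at month 6 in both breeds. Of 18815 genes listed in the count table, 14085 had enough reads to be tested. The series also holds libraries of month 3 and month 9 from each breed, and these entered the fit and are given here as context. The labels name the month as the age of the goat, while the design text of the series speaks of different months, so months of life and months of the calendar cannot be told apart. All groups were labelled as skin, and no genotype, drug or other treatment was named for any of them. There was 1 library per breed and month, the labels do not say how many goats went into it, and the protocol text speaks of embryos without further detail. The 2 breeds were therefore the only replication of a month. The fit gives both breeds the same month effect, so differences between the breeds in their course over the months count as its error. The p-values measure only this spread between these libraries, which may be technical.

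The dermis is built by fibroblasts, which secrete type I collagen, made of the chains encoded by COL1A1 and COL1A2, and type III collagen, encoded by COL3A1. Newly made procollagen is folded with the help of chaperones such as SERPINH1, trimmed by proteases such as ADAMTS2, and cross-linked outside the cell by lysyl oxidases such as LOX. Hair follicles cycle between growth and rest, and a growing follicle makes hair keratins and keratin-associated proteins in the shaft and trichohyalin (TCHH) in the inner root sheath. In cashmere goats the follicles of the undercoat follow the season. Sebaceous glands, which open into the follicles, make the lipids of sebum.

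The total was 8152447 reads at month 6 and 7480053 at month 12 in the cashmere goat libraries, and 12841576 and 11485295 in the milk goat libraries. A count of 0 allows up to 3 reads, which stood for 0.231 to 0.395 CPM, read counts scaled to a common library size, in these 4 libraries. The defining genes of skin were present in all 8 libraries: KRT1, a keratin of the upper epidermis, stood at 4657 to 21110 CPM and COL1A1 at 539 to 17750 CPM. The milk goat library of month 12 lay at one end of the first principal component, which held 48.7% of the variance, at -70.9. The milk goat library of month 3 lay nearest to it at -51.8, and the other 6 lay between -7.40 and 46.2. TCHH made up 0.243% of the reads of milk month 12 and 0.946% of milk month 3, against 5.72% in milk month 6, 4.70% in cashmere month 6 and 6.64% in cashmere month 12. Each ratio is therefore given by breed, so that the cashmere value stands without that library.

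No gene passed an adjusted p of 0.05 in edgeR's quasi-likelihood test of month 12 against month 6 with breed as a term (percent called 0 of 14085, smallest adjusted p = 0.196). At an unadjusted p under 0.05 the same test gave 564 higher genes (4.00% of those tested) and 507 lower genes (3.60%). DESeq2, run as an alternative on the same counts and model, called 43 genes higher (0.305%) and 51 lower (0.362%) at its adjusted p of 0.05. All 94 of them moved the same way in both breeds, 61 of them by 2-fold or more in each. The model fits the same month effect to both breeds, so a gene moving opposite ways can hardly be called. The shared direction of the 94 thus follows largely from the model. Since the main test called no gene, the values below are described by breed, and a DESeq2 call is named as such.

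By 2-fold or more in both breeds, 59 genes were higher at month 12 (0.419% of those tested) and 133 were lower (0.944%). By the same size, 41 genes were higher in the cashmere goats and lower in the milk goats, and 25 were the reverse. Across all tested genes the sign of the ratio was shared by 50.9%, and the log2 ratios of the breeds correlated weakly over genes, which are not independent replicates (Pearson 0.15, Spearman 0.06). Of the 593 genes lower by 2-fold in the cashmere goats 22.4% were also lower by 2-fold in the milk goats, and of the 980 lower in the milk goats 13.6% were also lower in the cashmere goats. For the higher genes these shares were 24.5% of 241 in the cashmere goats and 9.28% of 636 in the milk goats. At the smaller size of 1.5-fold in each breed, 293 genes were higher (2.08%) and 383 lower (2.72%). By any amount, 26.0% of the tested genes were higher in both breeds and 24.9% lower in both. These shares, and those at 1.5-fold and 2-fold, are the ones to set beside such counts in the lists below.

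**Figure D1:**
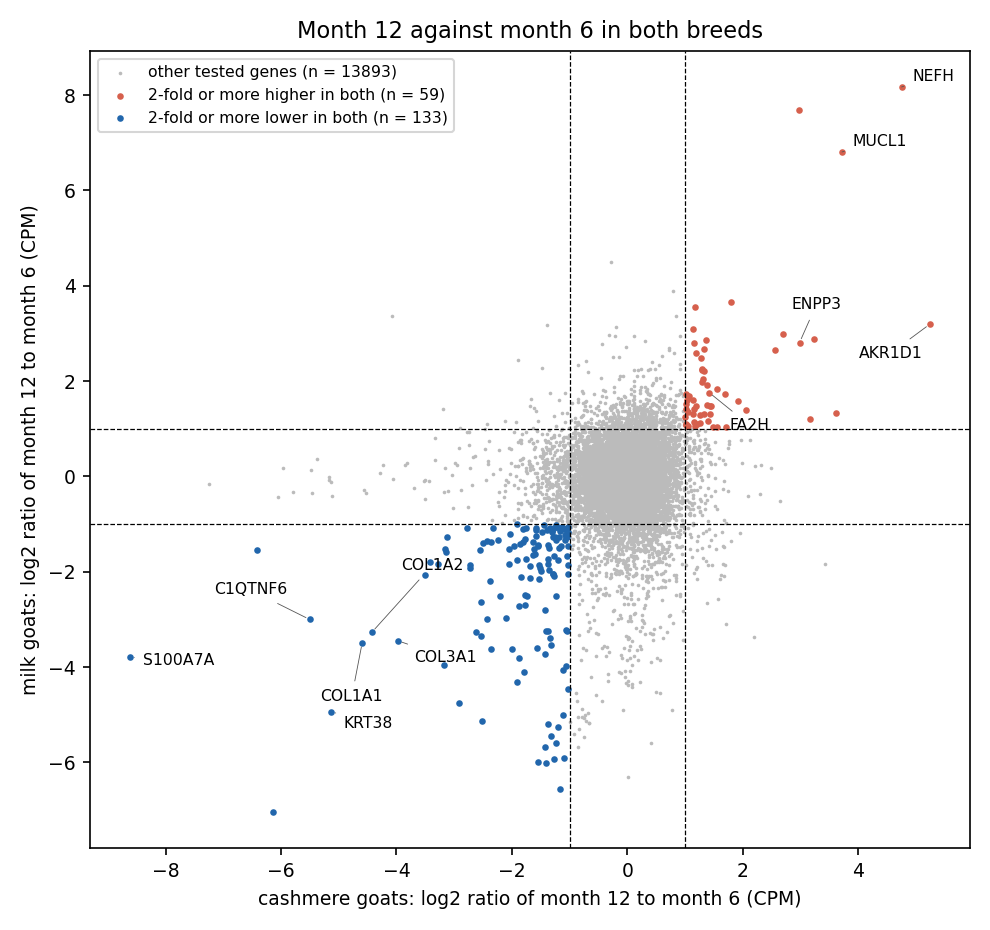
Log2 ratio of month 12 to month 6 (TMM-scaled CPM with a prior count of 2) in the cashmere goats (horizontal) and in the milk goats (vertical), 1 point per tested gene, with dashed lines at 2-fold. The 133 genes at the lower left include COL1A1, COL1A2 and COL3A1, the 59 at the upper right include NEFH, MUCL1 and AKR1D1, and a band of genes is low in the milk goats only.

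Type I and type III collagen were the most abundant transcripts among the genes lower in both breeds. COL1A1 stood at 17750 CPM at month 6 and 735 at month 12 in the cashmere goats, and at 6076 and 539 in the milk goats. Both month 12 libraries were below both month 6 libraries, and the groups did not overlap. For genes named for a large ratio shared by both breeds, a lack of overlap follows largely from that choice, here and below. The share of all tested genes without overlap is not given, so it serves as a description. The level at month 12 was 24.2-fold lower in the cashmere goats (95% interval 23.5 to 24.8) and 11.3-fold lower in the milk goats (10.98 to 11.56), where the exact binomial intervals cover counting error only. The edgeR log2 fold change was -4.26 (SE 0.82, unadjusted p = 0.00109, adjusted p = 0.405), and DESeq2 gave an adjusted p of 0.0252. Per length, the level of COL1A1 went from 1826 to 73.7 FPKM in the cashmere goats and from 602 to 47.1 FPKM in the milk goats.

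COL1A2, the partner chain in type I collagen, stood at 7796 and 363 CPM in the cashmere goats of months 6 and 12. In the milk goats it stood at 2535 and 263 CPM. These values put it 21.5-fold (20.7 to 22.3) and 9.64-fold (9.29 to 10.0) lower at month 12. COL3A1 followed the same order, with 6425 and 408 CPM in the cashmere goats and 2126 and 194 CPM in the milk goats, and again the months did not overlap. It was 15.7-fold (15.2 to 16.3) and 10.9-fold (10.5 to 11.4) lower. DESeq2 called both genes (adjusted p = 0.00136 for COL1A2 and 0.00244 for COL3A1), while edgeR's adjusted p was 0.360 and 0.384.

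These 3 genes together held 3.26% of all reads in the cashmere goat library of month 6 and 0.153% in that of month 12 (exact 95% intervals 3.25 to 3.27 and 0.1502 to 0.1558). In the milk goats they held 1.09% and 0.0985% (1.08 to 1.09 and 0.0967 to 0.1003). The other months placed these values in order. In the cashmere goats month 6 was the highest of the 4 months, with 0.785% at month 3 and 0.410% at month 9. In the milk goats month 3 was the highest, with 1.91%, and month 9 stood at 0.673%. Month 12 was the lowest of the 4 months in both breeds, and month 6 was the highest in the cashmere goats alone. In bulk skin, fewer fibroblasts and less collagen RNA per fibroblast cannot be told apart.

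**Figure D2:**
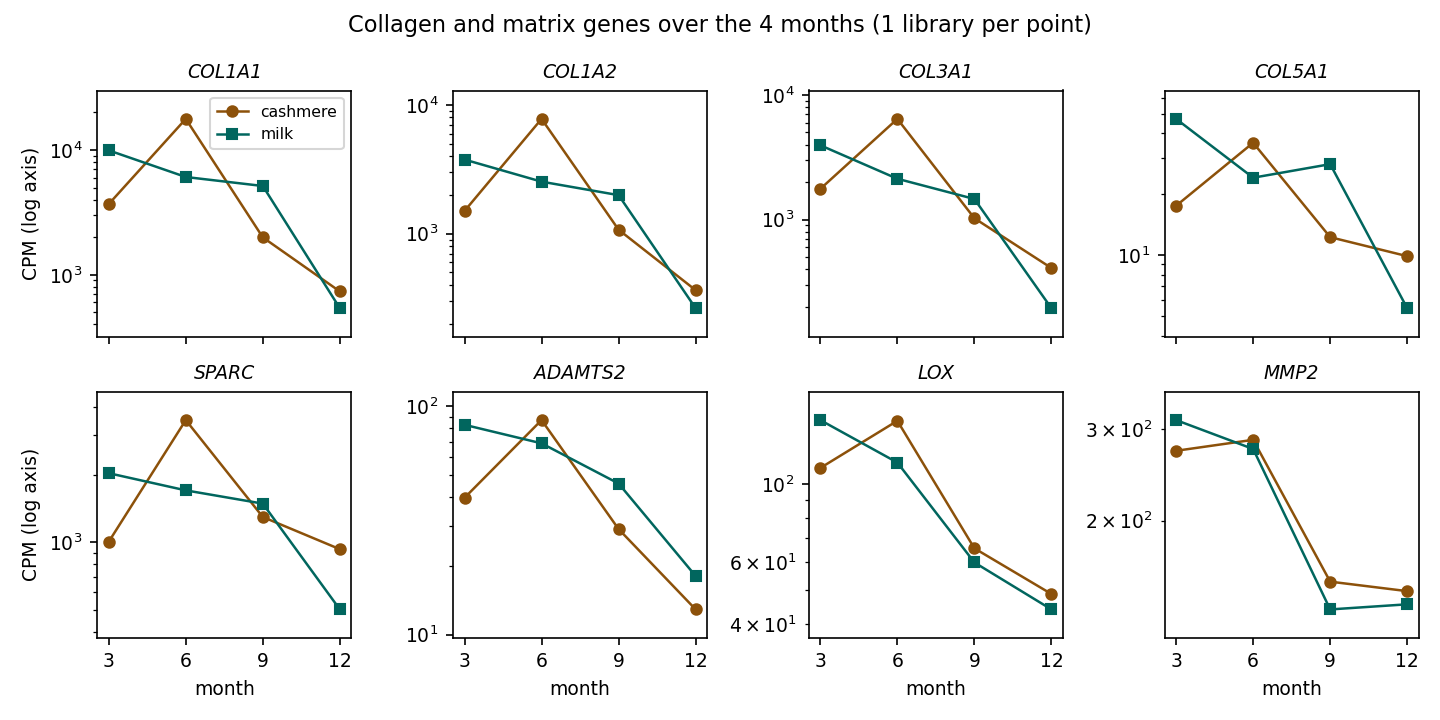
CPM (log axes) of 8 collagen and matrix genes at months 3, 6, 9 and 12, 1 library per point, cashmere goats as circles and milk goats as squares. COL1A1, COL1A2, COL3A1, COL5A1, SPARC, ADAMTS2 and LOX are lowest at month 12 in both breeds, and in the cashmere goats month 6 is the highest month in all 8.

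Among the fibrillar collagens as a list, 5 of 9 tested genes were lower by 1.5-fold or more in both breeds, and the same 5 were lower by 2-fold. The list's median log2 ratio was -1.03 in the cashmere goats and -1.50 in the milk goats, where the medians over all tested genes were 0.01 and -0.0017. Besides the 3 genes above, COL5A1, a chain of type V collagen that helps set the width of collagen fibrils, stood at 35.9 and 9.88 CPM in the cashmere goats and at 24.1 and 5.46 CPM in the milk goats. COL5A2, its partner chain, had log2 ratios of -1.03 and -1.46. The remaining members did not share this pattern: COL11A1 had ratios of 0.11 and -1.50, COL24A1 of -0.95 and 0.29, COL27A1 of -0.46 and 0.79, and COL5A3 of 0.01 and 0.59. COL5A1 and COL5A2 were not called by DESeq2 (adjusted p = 0.0632 and 0.153).

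Of the other dermal matrix collagens, 6 of 16 were lower by 1.5-fold in both breeds, against 2.72% of all tested genes. None was higher by that size, and the medians were -0.73 and -0.63. The 6 included 4 of the 5 type VI chains, which form the microfibrils around dermal cells. COL6A3 stood at 455 and 221 CPM in the cashmere goats and at 522 and 295 CPM in the milk goats, so that both month 12 values were below both month 6 values (log2 ratios -1.04 and -0.82, DESeq2 adjusted p = 0.00131). COL6A2 had log2 ratios of -0.87 and -1.26 (DESeq2 adjusted p = 0.0496) and COL6A6, a rarer type VI chain, of -2.23 and -1.34 (0.188). COL4A1, a chain of basement membrane collagen, had ratios of -0.76 and -0.83 (0.0399). COL6A5, the remaining type VI chain, differed in sign, with 0.85 and -2.20. COL7A1, which anchors the epidermis to the dermis, stood at -0.05 and 0.52, and COL17A1, a collagen of basal keratinocytes, at -0.10 and 0.80. COL16A1 (-0.10 and 0.54) and COL18A1 (0.02 and 0.18) were not lower in both breeds either, so the list did not move as one.

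Of the genes that fold, trim and cross-link collagen a part was lower beside it. Of 27 tested, 11 were lower by 1.5-fold or more in both breeds and none was higher, against 2.72% of all tested genes. The list's median log2 ratio was -0.79 in the cashmere goats and -0.65 in the milk goats, and 20 of the 27 were lower in both breeds by any amount. DESeq2 called 7 of them lower, against 0.362% of all tested genes.

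ADAMTS2, the protease that removes the amino-terminal propeptide of procollagen, stood at 86.9 CPM at month 6 and 12.9 at month 12 in the cashmere goats. In the milk goats its values were 68.8 and 18.1 CPM, so the months did not overlap. Its edgeR log2 fold change was -2.39 (SE 0.33, unadjusted p = 0.000129, adjusted p = 0.208), and the DESeq2 adjusted p was 2.3e-07. LOX, the lysyl oxidase that starts collagen and elastin cross-links, stood at 151 and 48.7 CPM in the cashmere goats and at 115 and 44.0 CPM in the milk goats (DESeq2 adjusted p = 4.36e-05). Its log2 ratios were -1.63 and -1.38, and the 2 month 12 values were the lowest among the 8 libraries. LOXL4, a related oxidase, had ratios of -1.75 and -1.08 (DESeq2 adjusted p = 0.0897). SPARC, a secreted protein that binds collagen, stood at 3494 and 933 CPM in the cashmere goats and at 1703 and 504 CPM in the milk goats (DESeq2 adjusted p = 0.0119).

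The 4 genes above were named for the largest shared ratios of this list, so the further members below have smaller shared ratios by that choice. SERPINH1, the collagen-specific chaperone, stood at 301 and 97.4 CPM in the cashmere goats and at 273 and 156 CPM in the milk goats, with no overlap of the months (log2 ratios -1.62 and -0.81, DESeq2 adjusted p = 0.00278). FKBP10, which helps fold procollagen in the endoplasmic reticulum, had ratios of -1.34 and -1.07 (0.0324). PCOLCE, an enhancer of procollagen trimming, had ratios of -1.48 and -0.77 (0.0254). P4HA1, a subunit of prolyl hydroxylase, and PLOD2, a lysyl hydroxylase, did not share the pattern, with ratios of -0.29 and 0.12 and of -0.06 and -0.16. PLOD3, another lysyl hydroxylase, was higher in both breeds (1.70 and 0.26), as was the lysyl oxidase relative LOXL3 (0.13 and 0.27). SERPINH1, FKBP10, PCOLCE, P4HA1, PLOD2, PLOD3 and LOXL3 were chosen after their values were seen.

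Some genes of the non-collagen matrix were lower by 1.5-fold in both breeds, where the share of all tested genes was 2.72%. Of the small leucine-rich proteoglycans, which coat collagen fibrils, 3 of 10 were lower by 1.5-fold in both breeds (medians -0.95 and -0.73). LUM, encoding lumican, stood at 467 and 228 CPM in the cashmere goats and at 386 and 106 CPM in the milk goats (DESeq2 adjusted p = 0.0443). ECM2 had log2 ratios of -0.87 and -0.95 and was not called by DESeq2 (adjusted p = 0.165). DCN, encoding decorin, the most abundant of this family in skin, was lower in the cashmere goats alone, from 791 to 466 CPM, while in the milk goats it went from 787 to 1047 CPM. Of the elastic fibre genes only 1 of 17, FBN2, reached 1.5-fold in both breeds (medians -0.46 and -0.53), while 13 of 17 were lower in both by any amount and DESeq2 called none of them.

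Of 21 matrix proteases and inhibitors, 4 were lower by 1.5-fold in both breeds, against 2.72% of all tested genes, and none was higher (medians -0.53 and -0.20). MMP1, an interstitial collagenase, stood at 10.96 and 1.98 CPM in the cashmere goats and at 10.9 and 0.705 CPM in the milk goats (DESeq2 adjusted p = 0.00624). MMP2, a gelatinase made by fibroblasts, stood at 286 and 146 CPM in the cashmere goats and at 275 and 138 CPM in the milk goats. Its log2 ratios of -0.97 and -0.99 were alike in both breeds (DESeq2 adjusted p = 0.00113). MMP27 had ratios of -2.72 and -1.86 (4.39e-05). Other members were higher in the milk goats and lower in the cashmere goats, among them MMP9 (-0.45 and 2.05), MMP13 (-0.14 and 2.04) and MMP7 (-0.91 and 1.22). Of the 21, 9 were higher in the milk goats.

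Fibroblast genes that encode no collagen were set beside the matrix genes in a list chosen after the values were seen. Of 15, 6 were lower by 1.5-fold in both breeds, against 2.72% of all tested genes, and none was higher, with medians of -0.72 and -0.70. TWIST1, a transcription factor of mesenchymal cells, stood at 44.4 and 15.1 CPM in the cashmere goats and at 63.9 and 23.2 CPM in the milk goats, with no overlap (log2 ratios -1.54 and -1.46, DESeq2 adjusted p = 4.82e-05). TWIST2 had ratios of -0.80 and -0.82 and CD248, a surface protein of stromal cells, of -0.91 and -1.15 (DESeq2 adjusted p = 0.517 and 0.165). DESeq2 called 2 of the 15, TWIST1 and LUM. PDGFRA, a growth factor receptor of dermal fibroblasts, stood at -0.41 and -1.03, and VIM, encoding the filament protein vimentin, at -0.69 and -0.43. PDGFRB (-0.24 and 0.02), FAP (-0.72 and 0.15) and DPP4 (0.48 and -0.02) differed in sign between the breeds, as did DCN. The list shares LUM, DCN and other matrix genes with the lists above. The summed level of the list was 4078 CPM at month 6 and 2498 at month 12 in the cashmere goats, and 5299 and 4102 CPM in the milk goats. Each of the 15 differed between the months by less than COL1A1 and COL1A2 did. Those 2 are among the 12 lower genes of largest shared ratio, so nearly any other gene differs by less. The comparison therefore says nothing on cell numbers. The part of a change in cell numbers in the collagen result was not tested.

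Of the 12 named lower genes, 7 are no collagen, keratin or S100 gene. C1QTNF6, a secreted protein with a collagen-like domain, stood at 50.6 and 0.922 CPM in the cashmere goats and at 9.86 and 1.06 CPM in the milk goats. SERPINF1, encoding the secreted pigment epithelium-derived factor, stood at 278 and 47.7 CPM in the cashmere goats and at 313 and 30.5 CPM in the milk goats. IGSF10 stood at 67.2 and 11.5 CPM and at 49.8 and 7.84 CPM in the same order. The months did not overlap in any of these 3, and DESeq2 called all of them (adjusted p = 0.00185, 2.01e-05 and 1.88e-06).

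PCSK1, a protease that cuts prohormones, was 10.4-fold lower at month 12 in the cashmere goats (5.25 to 23.3) and 19.2-fold lower in the milk goats (9.93 to 42.7). GRP, encoding gastrin-releasing peptide, stood at 9.27 and 1.05 CPM in the cashmere goats and at 9.94 and 0.176 CPM in the milk goats, the last resting on 2 reads. PRPH, encoding the neuronal filament protein peripherin, stood at 25.8 and 4.61 CPM and at 29.3 and 3.52 CPM. PLA2G2E, a secreted phospholipase, stood at 18.3 and 3.03 CPM and at 9.78 and 0.0881 CPM, the last being 1 read, so that its ratio in the milk goats, 111-fold, has a counting interval of 19.6 to 4420. DESeq2 called PCSK1, GRP and PRPH (adjusted p = 4.85e-05, 5.28e-05 and 2.01e-05) and did not call PLA2G2E (0.257).

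S100A7A, of the S100 family of calcium-binding defence proteins, had 640 reads at month 6 and 0 at month 12 in the cashmere goats, and 33 and 0 reads in the milk goats. Set against 3 reads per library, its level was at least 195-fold lower in the cashmere goats and at least 9.62-fold lower in the milk goats. With the counting error of the other library the limits are 158 and 7.39. The milk goat library of month 9 also had 0 CPM, and the gene stood at 2.69 to 21.1 CPM in the libraries of month 3 and the cashmere library of month 9. Its level at month 6 thus rested mostly on the cashmere goat library, and DESeq2 gave it an adjusted p of 0.173.

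**Figure D3:**
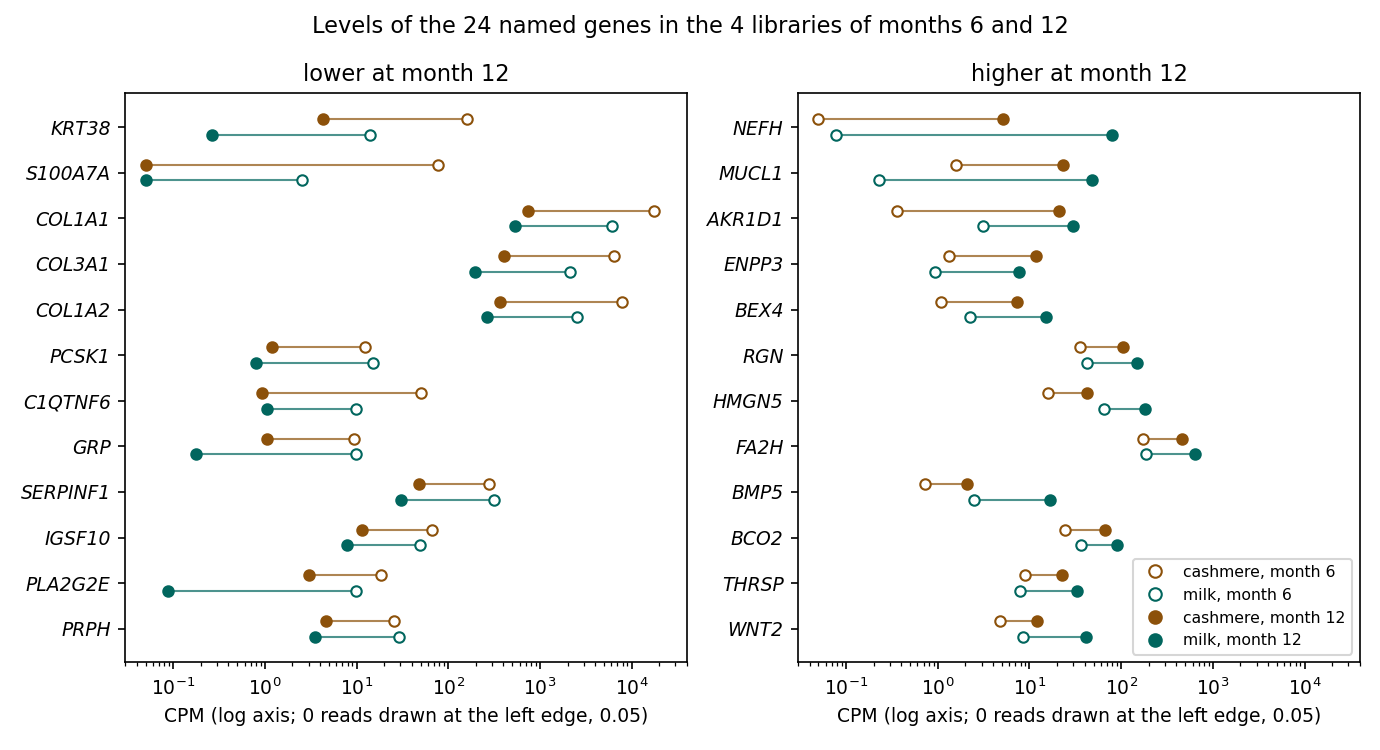
CPM (log axes) of the 12 lower and the 12 higher named genes in the 4 libraries, open circles for month 6 and filled circles for month 12, with 1 line per breed. In each gene both lines run the same way. COL1A1 leads in abundance with 17750 CPM at month 6 in the cashmere goats, and HMGN5 and BMP5 are the genes in which the months overlap between breeds.

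On the higher side, 12 genes were named by the same rule. NEFH, encoding the heavy neurofilament chain of axons, had 0 reads at month 6 and 39 at month 12 in the cashmere goats, and 1 and 897 reads in the milk goats. That is at least 14.2-fold in the cashmere goats, set against 3 reads (11.02-fold with the counting error of the 39 reads), and 1026-fold in the milk goats with a counting interval of 184 to 40570. Its edgeR p was the smallest of the named genes (3.71e-05, adjusted 0.196). PRPH, another neuronal filament gene, was lower, and of the 14 tested Schwann cell and nerve genes 2 were higher and 1 was lower by 1.5-fold in both breeds.

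MUCL1, a small mucin of skin glands, stood at 1.56 and 23.0 CPM in the cashmere goats and at 0.231 and 47.8 CPM in the milk goats. AKR1D1, a steroid reductase, stood at 0.361 and 20.9 CPM in the cashmere goats and at 3.08 and 29.8 CPM in the milk goats. In both genes the month 12 values lay above both month 6 values, and the low values rested on 3 to 40 reads. ENPP3, an ectonucleotidase, was 8.95-fold higher in the cashmere goats (4.77 to 18.6) and 8.29-fold higher in the milk goats (4.51 to 16.7), and BEX4 was 6.80-fold (3.34 to 15.6) and 6.78-fold (4.56 to 10.4) higher. DESeq2 called all 4 (adjusted p = 0.000119, 1.14e-08, 2.1e-05 and 6.1e-05).

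Lipid genes were among the higher genes with many reads. FA2H, the hydroxylase that makes hydroxylated fatty acids for skin and sebum lipids, stood at 173 and 463 CPM in the cashmere goats and at 186 and 631 CPM in the milk goats. In each breed the values of months 3, 6 and 9 lay within 173 to 246 CPM, and month 12 stood above them. It was 2.67-fold (2.51 to 2.84) and 3.39-fold (3.24 to 3.55) higher, with an edgeR log2 fold change of 1.59 (SE 0.21, unadjusted p = 9.73e-05, adjusted p = 0.208) and the smallest DESeq2 adjusted p of all genes, 7.92e-11. ELOVL3, an elongase of sebaceous gland and brown fat, stood at 492 and 772 CPM in the cashmere goats and at 621 and 1533 CPM in the milk goats (DESeq2 adjusted p = 0.00963).

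THRSP, a regulator of lipid synthesis, was 2.51-fold (1.90 to 3.34) and 4.19-fold (3.36 to 5.27) higher (DESeq2 adjusted p = 0.000468). BCO2, a mitochondrial enzyme that cleaves carotenoids, stood at 24.7 and 66.6 CPM in the cashmere goats and at 36.5 and 91.2 CPM in the milk goats (DESeq2 adjusted p = 1.37e-06). RGN, a calcium-binding protein also known as SMP30, stood at 35.4 and 104 CPM and at 42.1 and 150.2 CPM (1.81e-05). The months did not overlap in THRSP, BCO2 or RGN. Of the whole sebaceous and lipid synthesis list 3 of 27 were higher by 1.5-fold in both breeds, against 2.08% of all tested genes. None was lower by that size, the medians were 0.08 and 0.44, and DESeq2 called FA2H and ELOVL3. SCD, a desaturase of the same list, stood at -0.96 and -0.02, so the list did not move as one.

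Some signalling genes shared changes of 1.5-fold or more. WNT2, a Wnt ligand, stood at 4.82 and 12.1 CPM in the cashmere goats and at 8.55 and 41.6 CPM in the milk goats, without overlap (DESeq2 adjusted p = 0.0021), and 1 of the 14 Wnt ligands was higher and 1 lower by 1.5-fold in both breeds. Of 12 secreted Wnt inhibitors none was higher and 9 were lower by any amount in both breeds (medians -0.54 and -0.15). The shares of all tested genes were 26.0% and 24.9%. BMP5, a bone morphogenetic protein, stood at 0.722 and 2.11 CPM and at 2.46 and 16.8 CPM, so that the months overlapped (DESeq2 adjusted p = 0.201). HMGN5, a nucleosome-binding protein, was 2.70-fold (2.20 to 3.34) and 2.80-fold (2.58 to 3.04) higher, but its cashmere value of month 12, 42.7 CPM, lay below its milk value of month 6, 65.7 CPM (0.126). Of the 24 named genes 17 were also found in the authors' second count table, and 16 of them had the same direction in both breeds there. BMP5 was the exception, with log2 ratios of -0.35 and 0.15. The second table counts the same libraries, in which these genes were chosen for their shared direction, so it is no replication.

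Of 23 BMP pathway genes 3 were lower by 1.5-fold in both breeds, against 2.72% of all tested genes, and 1 was higher. FSTL1, a secreted BMP antagonist of mesenchyme, stood at 391 and 218 CPM and at 407 and 110 CPM. ID3, a BMP target, had ratios of -0.70 and -0.86, and GREM1, a secreted BMP antagonist, of -0.65 and -0.93. DESeq2 did not call FSTL1, ID3 or GREM1 (adjusted p = 0.0943, 0.286 and 0.31). Of 21 TGF-beta ligands, receptors and targets 3 were lower by that size, again against 2.72%, and none was higher. TNC, the matrix protein tenascin C, stood at 45.5 and 15.0 CPM and at 36.6 and 17.1 CPM (DESeq2 adjusted p = 0.0133). TGFBI had ratios of -1.97 and -0.91 and FN1, fibronectin, of -0.76 and -0.70. DESeq2 called neither TGFBI nor FN1 (adjusted p = 0.151 and 0.527). None of the 14 hedgehog genes reached 1.5-fold in both breeds in either direction.

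KRT38, a hair shaft keratin, had the largest ratio shared by both breeds among the named lower genes. It stood at 159 and 4.34 CPM in the cashmere goats and at 13.9 and 0.264 CPM in the milk goats, and its month 3 values, 1.60 and 0.163 CPM, were as low as those of month 12. It was 36.5-fold lower in the cashmere goats (25.8 to 53.2) and 52.8-fold lower in the milk goats (17.8 to 258), the last resting on 3 reads (edgeR adjusted p = 0.583, DESeq2 0.134). Of the 8 tested hair shaft keratins 5 were lower by 1.5-fold in both breeds, but by unlike amounts, with medians of -0.69 in the cashmere goats and -4.61 in the milk goats. KRT32 had ratios of -0.72 and -5.13, KRT40 of -0.99 and -5.15 and KRT36 of -0.79 and -3.86. KRT35, an early keratin of the cortex, had ratios of 0.03 and -3.65. DESeq2 called none of the 8.

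By the medians of their lists, the other products of the growing follicle were not lower in both breeds. By any amount, 2 of the 8 inner root sheath genes and 6 of the 31 cell division genes were, against 24.9% of all tested genes. The 8 inner root sheath genes had medians of 0.16 in the cashmere goats and -4.14 in the milk goats, and the 4 tested keratin-associated proteins 0.28 and -3.08. TCHH stood at 46120 and 65420 CPM in the cashmere goats and at 56530 and 2463 CPM in the milk goats. The 31 cell division genes had medians of 0.24 and -0.60, with MKI67 at 229 and 306 CPM and at 154 and 55.5 CPM. The summed level of the inner root sheath genes was 54510 and 74560 CPM in the cashmere goats and 63870 and 3011 CPM in the milk goats. The low levels of inner root sheath genes and keratin-associated proteins at month 12 thus belonged to the milk goat library, and their part in the milk goat ratios of other genes was not tested.

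**Figure D4:**
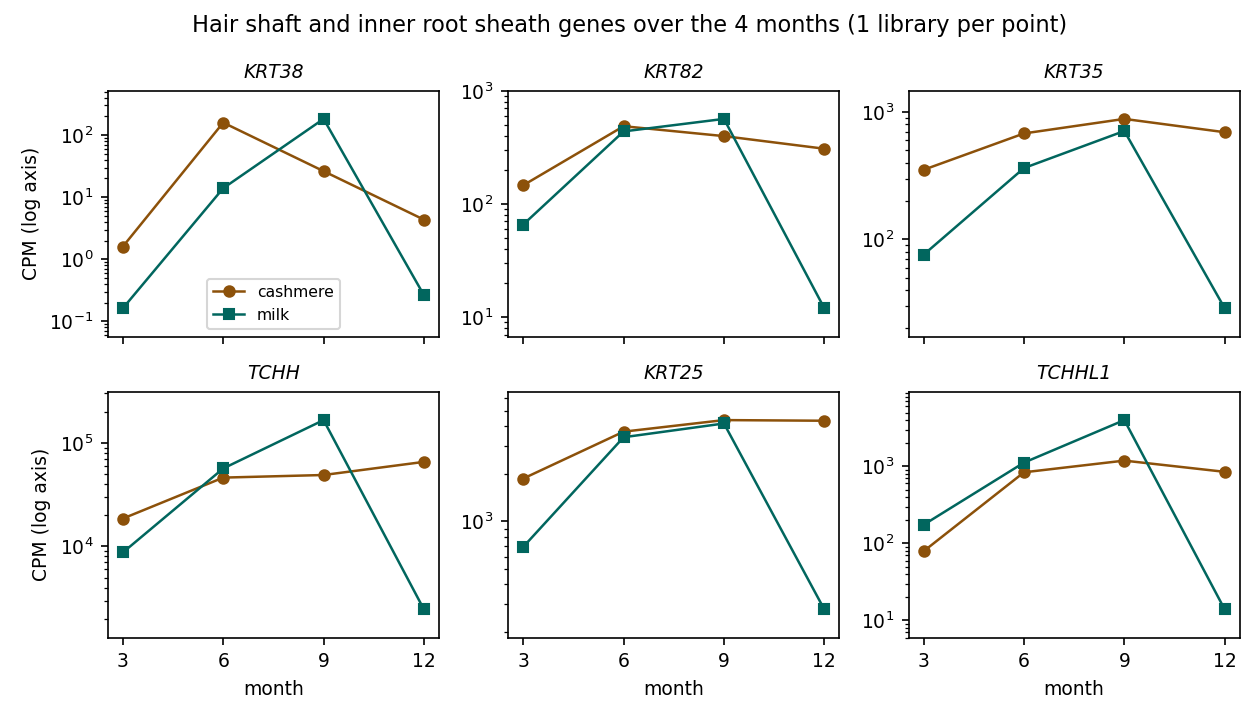
CPM (log axes) of 3 hair shaft keratins and 3 inner root sheath genes at months 3, 6, 9 and 12, 1 library per point, cashmere goats as circles and milk goats as squares. KRT38 is lower at month 12 than at month 6 in both breeds, whereas TCHH, KRT25 and TCHHL1 are low at month 12 in the milk goats alone.

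Among the regulators of the follicle, 1 of 24 hair matrix and cortex genes, FOXQ1, a transcription factor of the hair medulla, was lower in both breeds, from 62.7 to 22.5 CPM and from 96.8 to 43.1 CPM (DESeq2 adjusted p = 0.0221). The dermal papilla genes had medians of -0.49 and -0.47, and 14 of 25 were lower by any amount in both breeds, against 24.9% of all tested genes. Genes of the outer root sheath and of follicle stem cells had ratios near those of all genes, with medians of 0.07 and 0.17 and no member at 1.5-fold in both breeds. ZBTB16, a transcription factor that glucocorticoids induce, was higher, from 80.9 to 168 CPM and from 132 to 412 CPM (DESeq2 adjusted p = 0.0841). In the cashmere goats its month 3 value, 345 CPM, was higher still, and in the milk goats month 3 stood at 212 CPM. KITLG, the ligand of the KIT receptor on pigment cells, stood at 97.3 and 39.6 CPM and at 92.8 and 38.3 CPM (DESeq2 adjusted p = 0.00231) and was chosen after its values were seen.

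Some markers of other cells of the skin reached 1.5-fold the same way in both breeds. Of 18 macrophage and dendritic cell genes 4 were lower, against 2.72% of all tested genes. Among them was CD14, a receptor for bacterial lipopolysaccharide, at 27.6 and 13.3 CPM and at 35.7 and 20.9 CPM. DESeq2 did not call CD14 (adjusted p = 0.201). By any amount, 14 of 18 were lower in both breeds, against 24.9% of all tested genes. LYVE1, a marker of lymphatic vessels, stood at 11.4 and 4.61 CPM and at 20.2 and 9.43 CPM (DESeq2 adjusted p = 0.193). It was the 1 of 20 endothelial genes that reached 1.5-fold in both. In the cashmere goats all 20 endothelial genes were lower at month 12 (median -0.71), among them CDH5, the cadherin of vessel walls, at -1.22 and ENG, endoglin, at -1.21. In the milk goats 14 of the 20 were higher (median 0.14), and the list's summed level went from 739 to 421 CPM in the cashmere goats and from 812 to 930 CPM in the milk goats. The part of this endothelial difference in the cashmere goat collagen ratios was not tested. Skeletal muscle genes were low throughout, with a summed level of 58.6 and 106 CPM and of 72.9 and 138 CPM. By any amount, 7 of 9 were higher in both breeds, against 26.0% of all tested genes. TTN, the giant muscle protein titin, stood at 2.89 and 6.58 CPM and at 2.46 and 22.4 CPM (DESeq2 adjusted p = 0.0249). Per length its level was only 0.01 to 0.1 FPKM. Its log2 fold change ran from 0.07 to 3.26 over the settings given below, and its cashmere ratio in the second count table was 0.39. The adipocyte genes summed to 243 and 328 CPM and to 217 and 331 CPM. Of these, 2 of 8 were higher by 1.5-fold in both breeds, against 2.08% of all tested genes. The share of these tissues in the ratios of other genes was not tested.

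Of 25 HOX genes, whose expression marks body position, 1 was higher by 1.5-fold in both breeds and none was lower. HOXD12 stood at 7.59 and 17.6 CPM in the cashmere goats and at 17.4 and 105 CPM in the milk goats (DESeq2 adjusted p = 0.0399). The list's medians differed in sign, -0.32 in the cashmere goats and 0.48 in the milk goats.

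Season-related lists gave small ratios. RBM3, an RNA-binding protein induced by cold, stood at 145 and 305 CPM in the cashmere goats and at 146 and 228 CPM in the milk goats, so that month 12 was above month 6 in both breeds without overlap (log2 ratios 1.07 and 0.65, edgeR unadjusted p = 0.0110, DESeq2 adjusted p = 0.145). CIRBP, its relative, had ratios of 0.96 and 0.57. These were the 2 of 6 tested cold-inducible and temperature genes that were higher in both breeds, and 2 others were lower in both. The shares of all tested genes were 26.0% and 24.9%, and the list's medians were 0.46 and -0.18. Of 22 circadian clock genes, CIART, a repressor of the clock, was the 1 at 1.5-fold in both breeds. Its ratios were 0.71 and 0.72 (DESeq2 adjusted p = 0.384). By any amount, 11 of 22 were higher in both breeds, against 26.0% of all tested genes. ESR1, the estrogen receptor, had ratios of -0.80 and -0.89 and IGFBP3, which carries insulin-like growth factor, of -1.05 and -0.77 (DESeq2 adjusted p = 0.618 and 0.0952). They were the 2 of 21 photoperiod and hormone receptor genes lower by 1.5-fold in both breeds, against 2.72% of all tested genes. None was higher by that size, and the list's medians were -0.09 and 0.10.

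In the epidermis, SBSN (suprabasin) had ratios of 0.78 and 1.02 and KRT2, a late keratin, of 1.38 and 0.60, while KLK5, a protease of the horny layer, had -0.94 and -0.85. These were 3 of 23 differentiation genes, and DESeq2 called none of the 3 (adjusted p = 0.165, 0.244 and 0.126). Of 32 splicing factors 4 were higher by 1.5-fold in both breeds, against 2.08% of all tested genes, and none was lower (medians 0.19 and 0.24). By any amount, 20 of 32 were higher in both, against 26.0% of all tested genes. PPIG, a cyclophilin of nuclear speckles, stood at 230 and 504 CPM and at 839 and 2092 CPM, where the cashmere value of month 12 lay below the milk value of month 6 (DESeq2 adjusted p = 0.0026). RBM25, a splicing regulator, had ratios of 1.02 and 1.42 (0.00994). No gene of 64 ribosomal proteins, 21 nuclear oxidative phosphorylation genes, 20 interferon response genes or 11 reference genes reached 1.5-fold in both breeds in either direction.

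**Figure D5:**
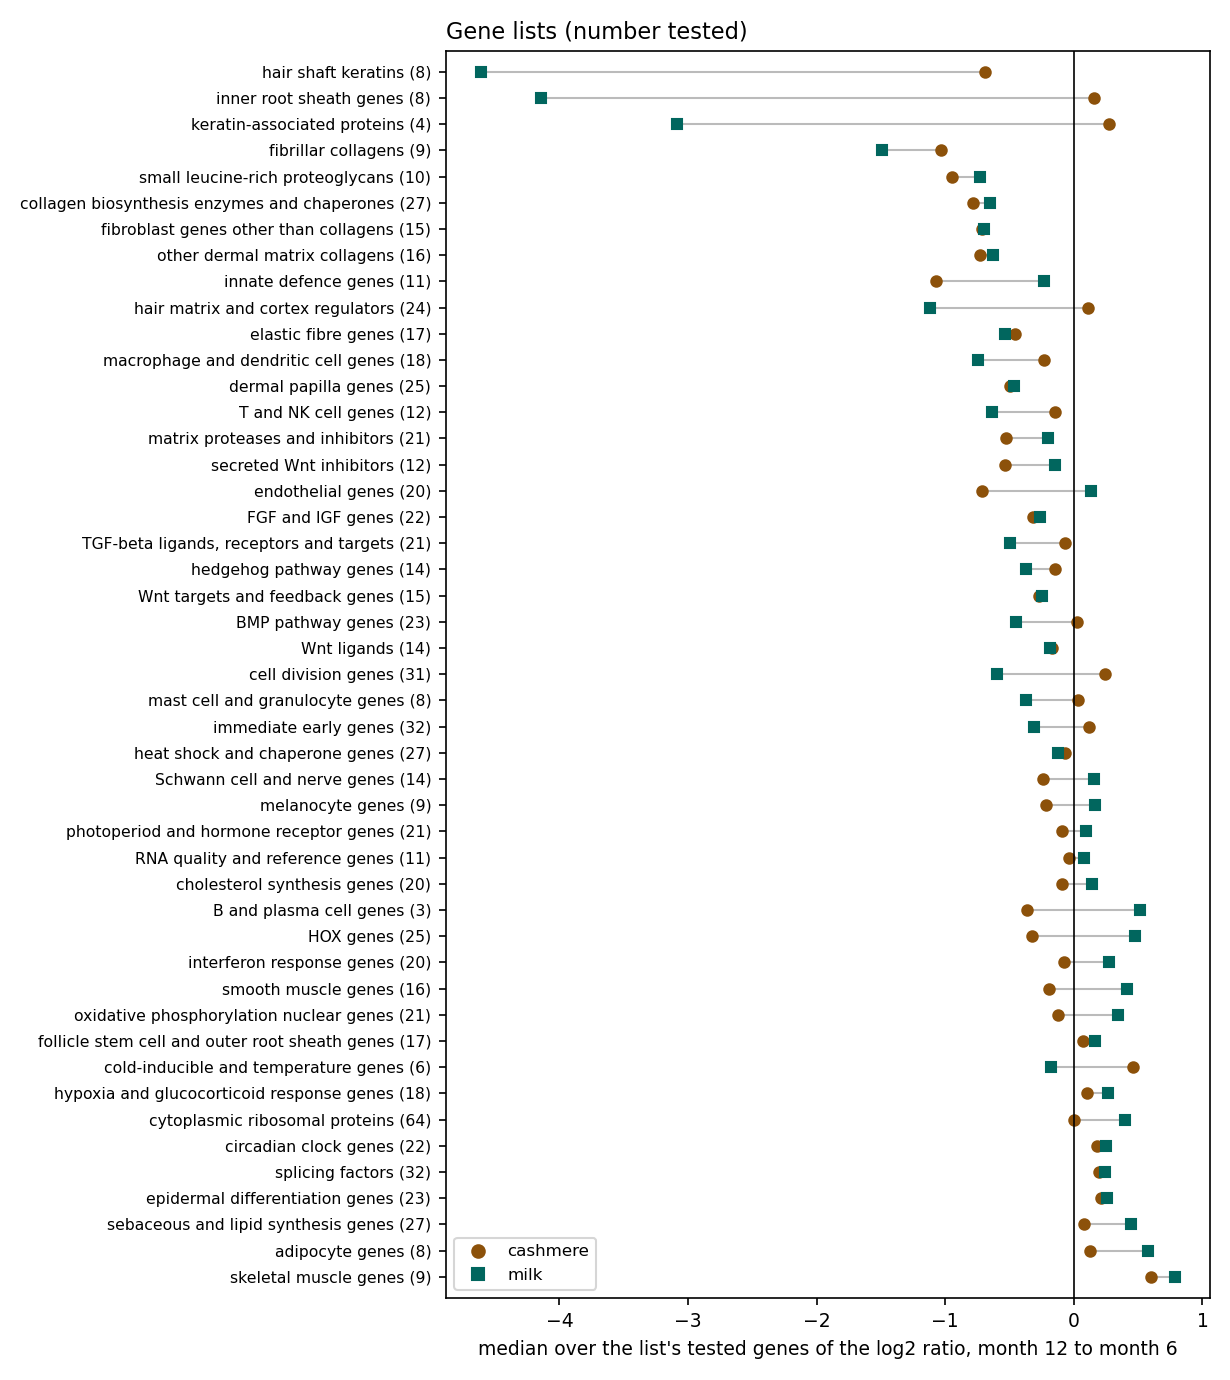
Median log2 ratio of month 12 to month 6 over each list's tested genes (number in brackets), cashmere goats as circles and milk goats as squares, for the lists with at least 3 tested genes. The collagen, proteoglycan and fibroblast lists are below 0 in both breeds, and the inner root sheath list is at 0.16 in the cashmere goats and -4.14 in the milk goats.

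The other months showed where the shared genes sat over the series. Of the 133 lower genes, 68 (51.1%) had month 12 as the lowest of the 4 months in both breeds, and 27 (20.3%) had month 6 as the highest in both. Over all tested genes these shares were 5.12% and 3.73%. Of the 59 higher genes, 34 (57.6%) had month 12 as the highest month in both breeds and 31 (52.5%) had month 6 as the lowest in both, against 6.23% and 4.83% of all tested genes. The choice of the genes by month 6 and month 12 raises these shares by itself, so they are a description.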

How the data were processed

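The authors deposited raw read counts per gene, FPKM values of the same genes and raw read counts for another gene set of 20780 genes, as the tables' headers name them. The submitters' processing notes name Bowtie2, with no version or role, and the genome build is not given in the sources used here, so no coordinates are printed. Libraries were directional, paired-end and made from polyadenylated RNA, per the labels' protocols. FPKM values, computed by the authors per kilobase and per mapped reads, served for levels per length and for an alternative. Columns were matched to samples by name, and the word "rong" in the first table was read as the cashmere goats.

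Counts were tested in R 4.3.3 with edgeR 4.0.16: filterByExpr on breed, TMM factors, a quasi-likelihood F test of month 12 minus month 6 in a model of month and breed over all 8 libraries (3 residual degrees of freedom), and Benjamini-Hochberg adjustment over 14085 genes with a threshold of 0.05. The SE is the log2 fold change divided by the square root of F. Ratios within a breed compare 1 library with 1, as log2 CPM with a prior count of 2, and have no test. Counting intervals are exact (Clopper-Pearson, 95%), reads carried no molecular identifiers, and they cover counting error only. The edgeR steps were tested on simulated counts. DESeq2 1.42.0 and limma 3.58.1 served as alternatives, beside other scaling, filters, the second count table and leaving out each library.

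Named were, without LOC symbols and from a mean of 5 CPM over the 4 libraries, 12 genes in each direction, those of largest ratio shared by both breeds, the 5 with the largest opposite ratios (1 of them is not reported here), COL1A1 and COL1A2, and up to 4 members of each of 47 lists. Further list members are named for their values, chosen after these were seen. The members and lists were chosen with earlier results of these data known. No test of a list was run. No sequences are printed.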

Additional observations from a re-analysis of the deposited data

Results flagged for a closer look

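Month 12 differed from month 6 in opposite directions in the 2 breeds for the items below, each the 1 library of month 12 against the 1 of month 6 in each breed, and the difference between breeds was not tested. LCN2, an iron-binding defence protein, had the widest gap: its log2 ratio was 3.43 in the cashmere goats and -1.85 in the milk goats, a difference of 5.27, with 15 and 162 reads in the cashmere goats and 19 and 3 in the milk goats. PRSS27, a serine protease, had ratios of 1.58 and -2.57 (difference 4.15) and SAMD5 of 1.38 and -2.65 (difference 4.03). ATP6V0A4, a proton pump subunit, had ratios of 1.21 and -2.15 (difference 3.35). In all 4 genes the month 9 libraries of both breeds stood above month 6.

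By list, the inner root sheath genes had medians of 0.16 in the cashmere goats and -4.14 in the milk goats, a difference of 4.30. The keratin-associated proteins, with 4 tested genes, had medians of 0.28 and -3.08, a difference of 3.36. The hair matrix and cortex regulators had 0.11 and -1.12, a difference of 1.23. All of these lower values rest on the milk goat library of month 12, in which TCHH took 0.243% of reads.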

How the results depend on the processing

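Over 14 alternatives 76 named genes were followed, all chosen for moving the same way in both breeds, so that their kept signs are no sign of stability. Their sizes moved to unlike degrees. Over all settings the log2 fold change ran from -5.10 to -2.74 for COL1A1, from 0.28 to 3.32 for BMP5 and from 1.45 to 1.72 for FA2H. The number of genes past the adjusted threshold did not hold: it was 0 in the reported fit, 2 (KRT38 and NEFH) with only the 4 libraries of months 6 and 12, 94 with DESeq2 and 9 with limma on log2(FPKM + 1). Leaving out 1 library gave 0 to 447 calls: 447 when cashmere month 12 was left out, 4 when milk month 12 was, 2 (C1QTNF6 and CPZ) when milk month 6 was, and 0 when cashmere month 6 was. Each such fit leaves 1 month with a single library, assumed to vary like the others. The count at an unadjusted p under 0.05 was 1071 as reported, 477 with no breed term and 342 to 3185 with 1 library left out (519 and 3185 for the cashmere libraries of months 6 and 12, and 342 for the milk library of month 6). The 59 genes higher by 2-fold in both breeds became 108 with no filter, 26 with at least 5 CPM in 4 libraries, 16 with ratios of FPKM + 1, 293 at 1.5-fold and 114 in the second count table. The 133 lower genes became 85 with at least 5 CPM, 73 with FPKM + 1 and 383 at 1.5-fold. The cause of these shifts was not tested, except that the filters and the fold change which genes can count. With FPKM + 1 several list medians moved. Milk goat medians changed sign for the follicle stem cell (0.17 to -0.02), photoperiod (0.10 to -0.08), cholesterol (0.14 to -0.03) and reference gene lists (0.08 to -0.09). Those of collagen biosynthesis (cashmere -0.79 to -0.46), dermal papilla (-0.49 to -0.25 and -0.47 to -0.24), sebaceous (milk 0.44 to 0.18), clock (milk 0.25 to 0.05) and splicing genes (milk 0.24 to 0.06) came nearer to 0. So did skeletal muscle (0.60 to 0.19 and 0.79 to 0.23), adipocyte (milk 0.58 to 0.21), T and NK cell (milk -0.64 to -0.26) and epidermal genes (milk 0.26 to 0.08). Some milk goat medians moved away from 0, among them those of the fibroblast (-0.70 to -0.80) and heat shock genes (-0.12 to -0.25). Breed was the pairing term. No paired analysis was possible by replicate number because each breed and month has 1 library. Depth limits genes with few reads: 3 reads stand for up to 0.395 CPM in these libraries.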

Other observations

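A pair of gene families held several genes lower at month 12 in both breeds, of which KLK5 and KLK7 (-0.16 and -1.38) are on the epidermal list. The number of tested members per family is not given, so no family share can be set beside those of all tested genes. Of all tested genes, 2.72% were lower by 1.5-fold in both breeds and 24.9% by any amount. The families and the members named below were chosen after their values were seen, so they are a description without a test. Of the kallikreins, serine proteases encoded side by side that shed the horny layer, KLK6 stood at 84.6 and 31.5 CPM in the cashmere goats of months 6 and 12 and at 58.7 and 4.23 CPM in the milk goats. KLK8 had log2 ratios of -1.62 and -1.53, KLK9 of -1.39 and -1.13 and KLK14 of -1.91 and -1.003. DESeq2 did not call KLK6, KLK8, KLK9 or KLK14 (adjusted p = 0.31, 0.372, 0.568 and 0.186). KLK10 did not share the direction, with 0.41 and -0.98. Of the C1q and TNF related secreted proteins, to which C1QTNF6 belongs, C1QTNF1 stood at 56.7 and 26.7 CPM and at 50.4 and 23.4 CPM, C1QTNF3 had ratios of -1.63 and -1.65 and C1QTNF2 of -1.81 and -1.10. C1QTNF9 had 0.30 and 1.87. DESeq2 did not call C1QTNF1, C1QTNF3 or C1QTNF2 (adjusted p = 0.188, 0.142 and 0.223).

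Single genes outside the lists are given as values, also chosen after these were seen. CPZ, a carboxypeptidase that binds Wnt proteins, stood at 74.8 and 6.85 CPM and at 40.4 and 11.4 CPM (DESeq2 adjusted p = 1.32e-06). CTHRC1, a secreted protein of collagen-making cells, had ratios of -3.14 and -1.58. AQP5, a water channel of sweat glands, had ratios of -1.79 and -4.10, opposite to the gland mucin MUCL1 (3.72 and 6.81). DESeq2 called neither CTHRC1 nor AQP5 (adjusted p = 0.057 and 0.741). Of the 59 higher and 133 lower genes, 18 and 39 carry only LOC symbols and were not named.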
